A study of Mus musculus with 48 samples.

Results

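The RNA described here is that of whole cortical homogenate (TH) before any ribosome sedimentation, called input_TH, in adult mice of 5 months (5m) and in young mice of 3 weeks (3w). Its members are the 8 libraries that the labels give as TH input at these ages, out of 48 libraries in the series, and the comparison runs across all genes. The 3w group holds mice 187 to 190 and the 5m group mice 191 to 194, so that each group has 4 mice. All were untreated male C57BL/6JRj wild-type mice, an inbred strain, and carried no allele of interest. The series also has a group of 18 months (18m), and from each mouse a ribosome pellet of the homogenate (SC_TH), synaptosomes (SYN, a preparation of pinched-off nerve endings) and the ribosome pellet of the latter. The age of the 5m group is given as 6 months in the sample characteristics and as 5 months in the protocol and in the study, and the name 5m is kept here. No library of the comparison was dropped from the main fit, and since the sources tie each library to 1 mouse, the spread between libraries includes that between mice.

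In the mouse cortex, the third week after birth falls in the period in which oligodendrocytes, the cells that wrap axons in myelin, are being made in large numbers from precursor cells. A precursor first becomes a newly formed, premyelinating oligodendrocyte, then lays down myelin, and finally keeps that myelin for the life of the animal. In the same weeks neurons still refine their axons and synapses, the lattice of chondroitin sulfate proteoglycans around many neurons matures, and the pups are weaned. By the adult age these processes have largely slowed. The comparison asks which transcripts of the whole tissue differ between these stages. In bulk tissue, fewer cells of a type and less RNA per cell cannot be told apart.

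Library totals in input_TH ran from 9699909 to 13225435 counts over genes, with mouse 187 the deepest. The first principal component of the 8 libraries (33.0% of variance) separated the ages, and the second (23.2%) set mouse 191 apart, at 31.6 against -22.4 to -15.0 in the other 5m mice. The library of mouse 191 had 458 genes at least 2-fold above the mean of the other 5m mice, where the other 5m libraries had 3 to 9 such genes. The summed level of 9 choroid plexus markers was 282, 175, 223 and 719.7 CPM (normalized counts scaled to a common library size) in the 3w mice and 1141, 157, 55.3 and 60.7 CPM in the 5m mice. For 10 markers of the meninges, the membranes around the brain, the sums were 220.5, 108, 157 and 149 CPM at 3w and 608, 104, 127 and 113 CPM at 5m. Mouse 191 was thus above all other libraries of the comparison in both lists, and mouse 190 was the highest of the 3w mice in the first. At 18m, mouse 195 reached 1756 CPM for choroid plexus and 232 CPM for meninges. Ttr, the transthyretin gene that defines the choroid plexus, was at 239, 144, 188 and 642 CPM in the 3w mice and 969, 119, 31.6 and 38.4 CPM in the 5m mice. The fit was therefore also run without this library, and many results that move with it are given both ways. Others are given below only with it. Examples are the circadian clock list (6 higher with it, 8 without) and the astrocytes list (8 lower with it, 10 without). The median log2 fold change of the oligodendrocyte precursors list was -0.36 with it and -0.49 without. Its part was not tested beyond leaving it out. Of 15 markers of cortical excitatory neurons all were measured, with sums between 4853 and 6543 CPM, so the labelled tissue had its defining markers. None of the tested markers of striatum (10), hippocampus (4), thalamus (4), olfactory neuroblasts (6) or ependyma (4) was called, and neither was any of the 4 Y-linked genes tested. A lack of calls does not show an even dissection, since no marker of choroid plexus or meninges was called in this fit either. The striatum sums ran from 407 to 706 CPM at 3w and 393 to 599 CPM at 5m. For thalamus they ran from 35.6 to 81.6 CPM and from 40.9 to 55.2 CPM.

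**Figure D1:**
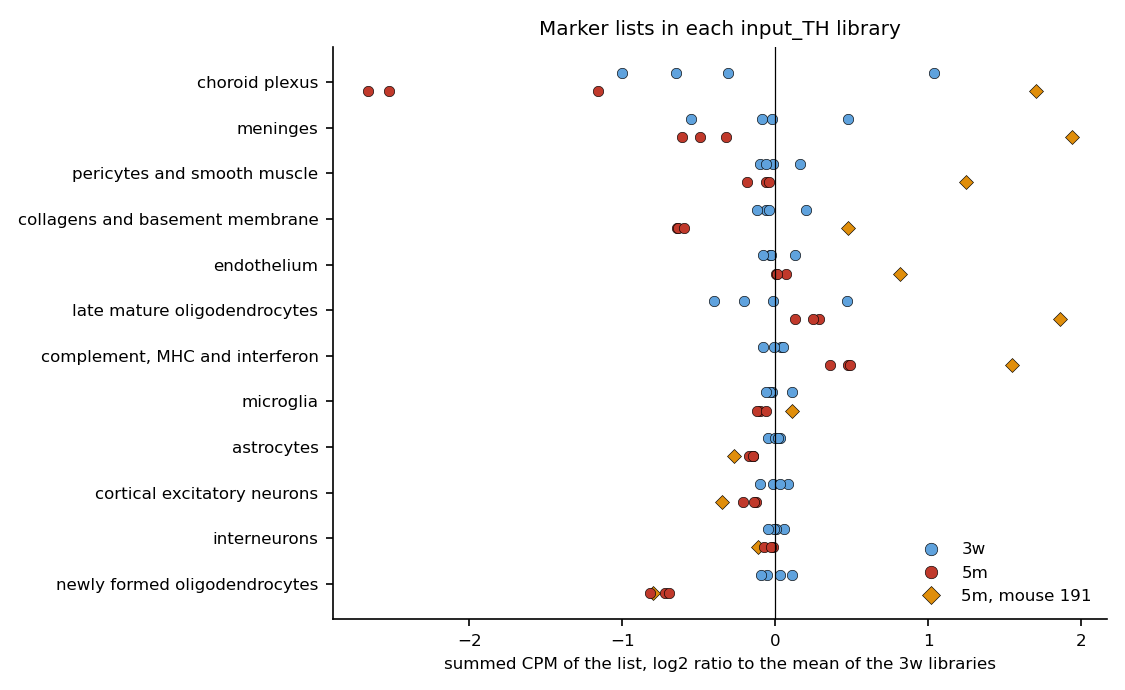
Summed level of the tested members of each marker list in every input_TH library, as the log2 ratio to the mean of the 4 libraries at 3w; each point is 1 mouse, blue for 3w, red for 5m and an orange diamond for mouse 191. Mouse 191 lies to the right of the other 5m mice for choroid plexus, meninges, mural cells, collagens, endothelium and late oligodendrocytes, and among them for newly formed oligodendrocytes.

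Of 48526 genes in the table, 18078 passed the filter on low counts and were tested, and 2136 differed between 5m and 3w (adjusted p under 0.05, edgeR's quasi-likelihood test), which is 11.8% of those tested. Of these, 861 were higher at 5m (4.76% of the genes tested) and 1275 lower (7.05%). Most differences were small: the median absolute log2 fold change of the called genes was 0.38, 1424 of them lay under 0.5 on the log2 scale, and 185 (1.02% of the genes tested) reached at least 2-fold, 92 higher and 93 lower. The values of the 4 and 4 mice did not overlap for 3283 of the genes tested (18.2%), among them 1940 of the 2136 called. Lack of overlap is thus the usual case for a called gene. The split by direction depends on the scaling. Scaled to library size alone in place of TMM, a scaling factor that assumes most genes do not change, 2383 genes were called, of which 59.2% were higher at 5m against 40.3% with TMM, and the median log2 fold change of all genes moved from 0.01 to 0.06. Without mouse 191, 2228 genes were called and 1782 of the 2136 kept their call and direction. With all 48 libraries in the fit, 761 genes were called, and 36 of the 145 called genes named here lost their call (adjusted p = 0.0506 for Dlg4 to 0.849 for Rpl29).

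Protein-coding genes were called more often (13.8% of 14100) than the other kinds (4.63% of 3978). By GC content of the exons, the 4494 genes with the least GC had 198 called higher and 153 lower, and the 4492 with the most had 197 higher and 517 lower. The median log2 fold change was 0.05 in the first and -0.04 in the second, and 0.01 and 0.00 after a trend on GC and length was removed, with 2307 genes called.

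**Figure D2:**
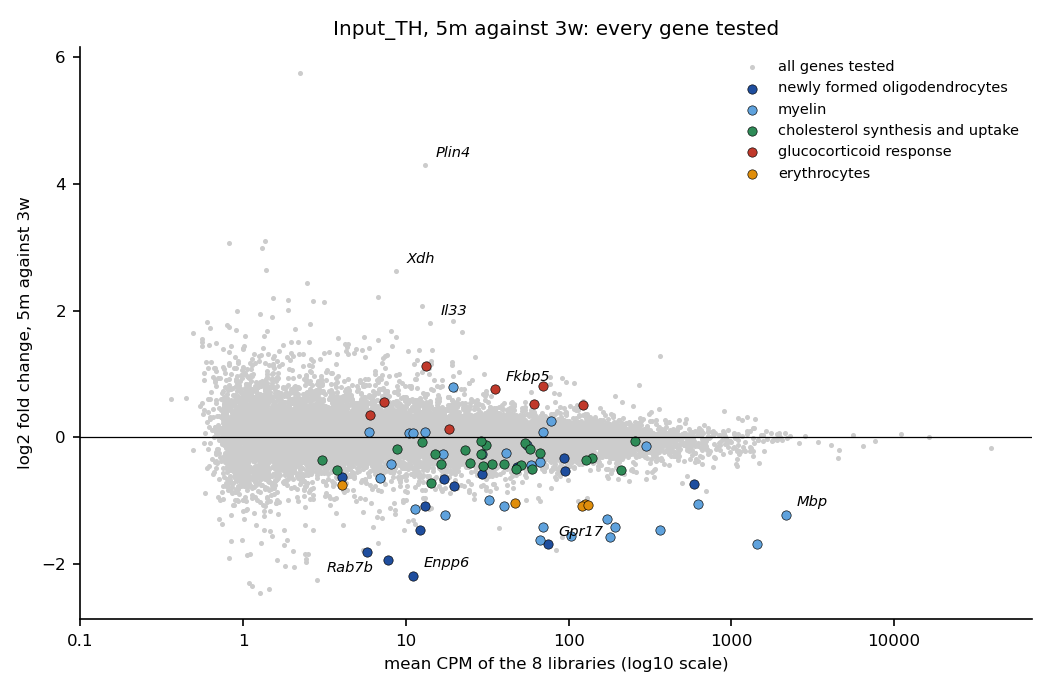
Each gene tested, by its mean level over the 8 libraries (CPM, log10 scale) and its log2 fold change of 5m against 3w; colours mark the members of 5 gene lists. Most members of the newly formed oligodendrocyte and myelin lists lie below zero, down to -2.19 for Enpp6, the glucocorticoid response lies above it, and Plin4 stands at 4.30.

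Genes of the oligodendrocyte lineage were among those lower at 5m. Of 14 tested genes that mark newly formed oligodendrocytes, 13 were lower at 5m and 0 higher, with a median log2 fold change of -0.75 beside 0.01 over all genes. Enpp6, a choline phosphodiesterase that is used as the marker of this stage, was at 20.8, 14.8, 17.5 and 19.2 CPM in the 3w mice and 2.73, 4.38, 4.04 and 4.75 CPM in the 5m mice. The 5m mice lay between 2.73 and 4.75 CPM, far under the lowest 3w mouse (log2 fold change -2.19 ± 0.16, SE, adjusted p = 1.13e-07). Gpr17, a receptor present on premyelinating cells, was at 127, 113, 114 and 104 CPM in the 3w mice and 36.1, 39.3, 31.8 and 35.2 CPM in the 5m mice, again with no overlap (-1.69 ± 0.10, adjusted p = 1.23e-08). Its gene overlaps Lims2, and since the counting ignored strand, reads in the shared stretch cannot be assigned with certainty. Rnf122, a membrane ubiquitin ligase, fell by 1.93 on the log2 scale and Kif19a, a kinesin, by 1.81. Nfasc, which codes for the neurofascins of the node of Ranvier and its flanks, went from 737 ± 46.9 CPM at 3w to 445 ± 27.9 CPM at 5m (SD, n = 4; log2 fold change -0.73 ± 0.0649). Prom1, a membrane protein of progenitor cells, was lower by 0.76 on the log2 scale, and Bcas1, a marker of myelinating cells in transition, by 0.33, the smallest difference in the list. The one member without a call was Bmp4, at a log2 fold change of -0.63 (adjusted p = 0.27). Without mouse 191 all 14 were lower.

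Myelin genes followed the same direction, though not all of them. Of 30 tested, 19 were lower at 5m, 1 was higher and 10 were not called (median -0.54). Mbp, which codes for myelin basic protein, went from 3051 ± 342 CPM at 3w to 1310.2 ± 86.1 CPM at 5m (-1.22 ± 0.0771). Mog, a glycoprotein of the outer myelin surface, was at 107, 99.5, 103 and 95.2 CPM in the 3w mice and 31.9, 34.4, 32.6 and 32.99 CPM in the 5m mice, the 4 and 4 values lying within narrow bands that did not overlap (-1.62 ± 0.0659, adjusted p = 1.51e-10). Cldn11, the claudin of myelin tight junctions (-1.58 ± 0.0574), and Tspan2 (-1.56 ± 0.11) were, with Mog, among the 12 largest falls, leaving out genes that averaged under 50 counts at 3w. Gsn, which codes for the actin-severing protein gelsolin and is in none of the lists, was another (-1.58 ± 0.14). Gsn stood at 66.6 CPM in mouse 191 against 37.8 to 40.9 CPM in the other 5m mice. Per kilobase of exon, Cldn11 stood at 144 CPM at 3w and Mog at 59.4 CPM. Among the members without a call was Car2, a carbonic anhydrase (0.08). The single riser was Hapln2, a link protein of the nodal matrix, at 13.99, 15.5, 15.4 and 11.7 CPM in the 3w mice and 22.01, 27.7, 22.1 and 27.1 CPM in the 5m mice (0.80 ± 0.11); it lies outside the naming rule and was chosen after its values were seen.

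Precursor genes also fell. Of 15 tested, 10 were lower and 0 higher (median -0.36), and 5 lower with all 48 libraries in the fit. Olig1 (-0.96 ± 0.0875), Sox10 (-0.76 ± 0.0846) and Olig2 (-0.69 ± 0.12), transcription factors of the whole lineage, and Neu4, a sialidase (-0.86 ± 0.11), had no overlap between the ages. Pdgfra, the receptor that defines precursor cells, was at 76.9, 65.6, 61.5 and 70.2 CPM in the 3w mice and 64.7, 44.9, 46.9 and 43.9 CPM in the 5m mice. Mouse 191 lay within the range of the 3w mice, the other 3 below it; the log2 fold change was -0.46 ± 0.10 (adjusted p = 0.00676) with it and -0.60 (adjusted p = 1.59e-05) without it. A further 9 genes stand for late, mature oligodendrocytes, and here the direction was the other way, with 3 higher and 0 lower (2 higher with only the 8 libraries in the fit). Il33, an alarmin of the interleukin family that mature oligodendrocytes and astrocytes hold in the nucleus, was at 6.69, 7.27, 5.15 and 5.82 CPM in the 3w mice and 20.1, 22.6, 23.7 and 20.99 CPM in the 5m mice. The lowest 5m mouse was above the highest 3w mouse by more than the range of either group (1.8 ± 0.12, adjusted p = 4.76e-08). Apod, apolipoprotein D, was at 64.8, 43.7, 57.98 and 53.2 CPM in the 3w mice and 180.3, 70.7, 70.5 and 75.9 CPM in the 5m mice and so far higher in mouse 191 than in any other (log2 fold change 0.85, and 0.40 without it, adjusted p = 0.0224); its call was lost without mouse 188, 189 or 190 (adjusted p = 0.0656 to 0.0956), with DESeq2 (0.0548) and with only the 8 libraries in the fit (0.0597). The last, Serpinb1a, a protease inhibitor outside the naming rule, was at about 1 CPM at 3w (1.37, 1.21, 1.24 and 1.36 CPM in the 3w mice and 2.16, 2.54, 3.13 and 2.07 CPM in the 5m mice), and its adjusted p was 0.0519 without mouse 193.

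At 18m the mean levels of these genes were 4.1 CPM for Enpp6, 27.96 for Gpr17, 36.8 for Mog, 46.6 for Pdgfra and 21.2 for Il33, each nearer to its 5m than to its 3w level. Mbp stood at 1653 CPM and Olig1 at 137 CPM, between the younger ages. In the test of 18m against 5m, which uses the same 5m libraries, 14 of the 30 myelin genes were called higher and 1 lower.

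**Figure D3:**
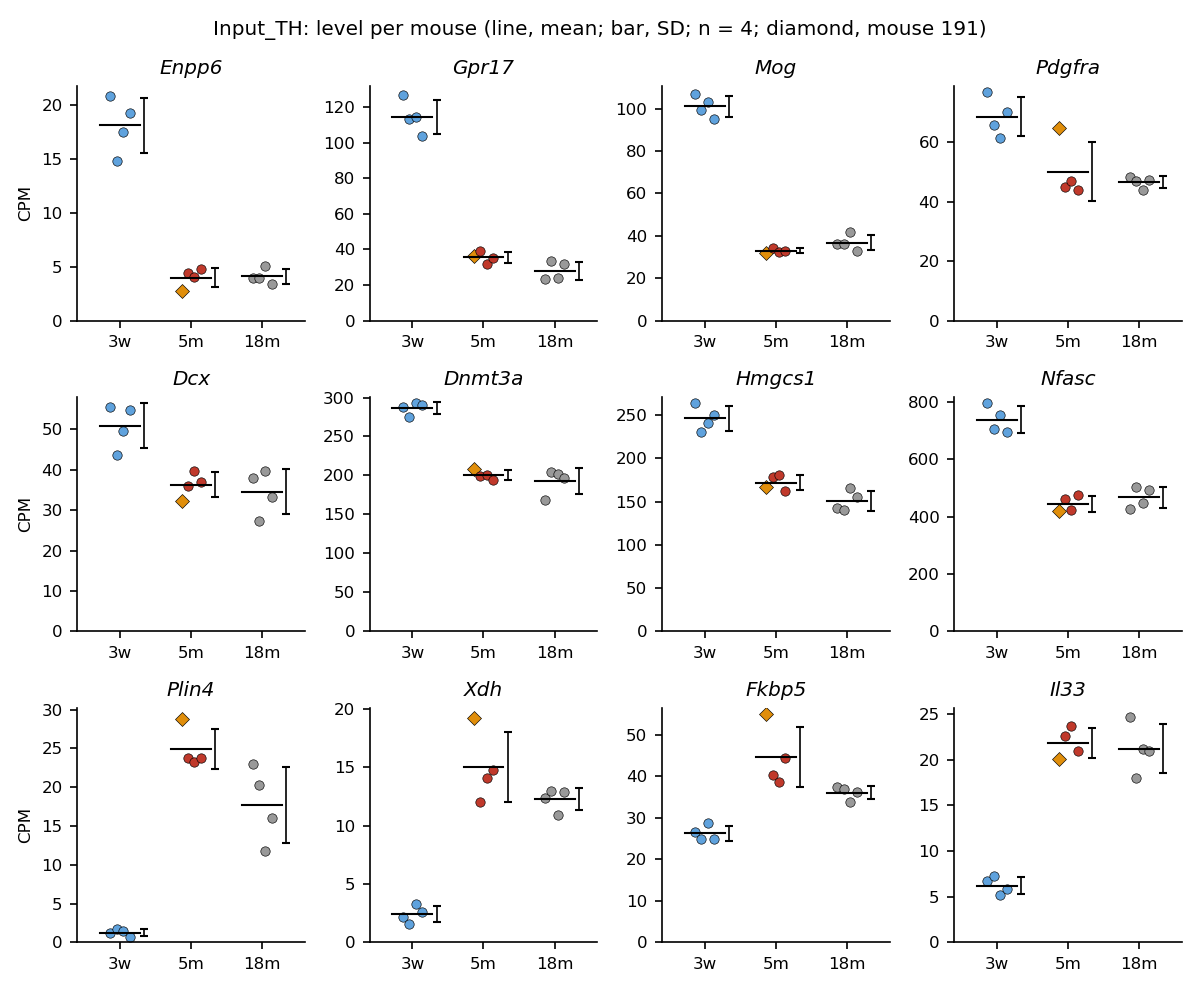
Level (CPM, linear axes from 0) of 12 genes in each input_TH library at 3w, 5m and 18m; each point is 1 mouse, lines are means and bars are SD (n = 4), and the diamond is mouse 191. The oligodendrocyte genes Enpp6, Gpr17 and Mog drop between 3w and 5m with no overlap, Pdgfra drops with mouse 191 within the 3w range, and Plin4, Xdh, Fkbp5 and Il33 rise.

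**Figure D4:**
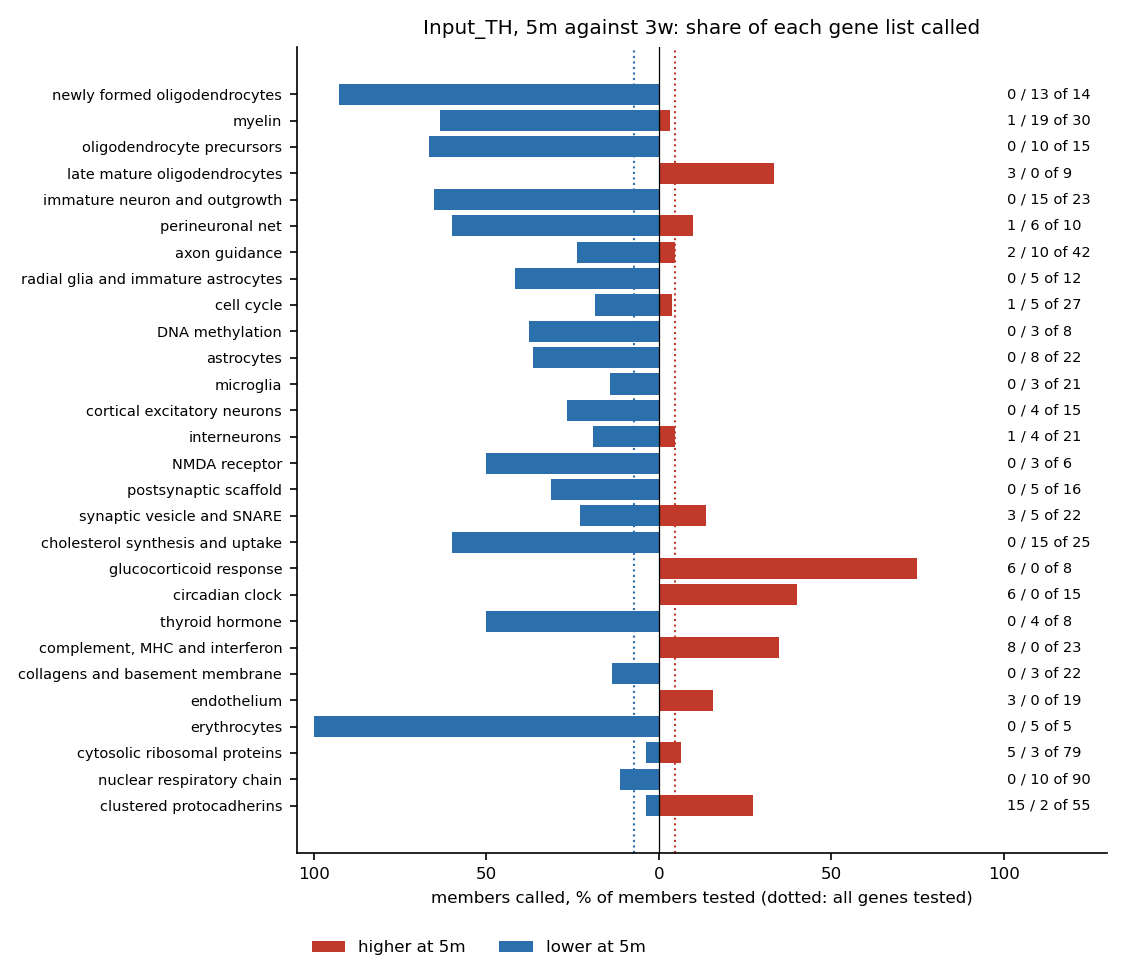
Share of the tested members of 28 gene lists that were called higher (red, to the right) or lower (blue, to the left) at 5m, with the counts as higher / lower of tested; dotted lines mark the shares over all genes tested (4.76% and 7.05%). Newly formed oligodendrocytes (13 of 14 lower), erythrocytes (5 of 5 lower) and the glucocorticoid response (6 of 8 higher) lie farthest from those lines.

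Genes of immature neurons and of process outgrowth were lower at 5m: 15 of 23 tested fell and 0 rose (median -0.33). The largest falls were those of Igfbpl1 (-2.03 ± 0.27) and Draxin, a repellent of growing axons (-1.84 ± 0.32), both with means under 50 counts and chosen after their values were seen. Marcksl1, an actin-binding relative of the MARCKS protein, had another of the 12 largest falls, at 131, 129, 135 and 120.5 CPM in the 3w mice and 44.5, 32.2, 38.9 and 33.9 CPM in the 5m mice (-1.79 ± 0.088, adjusted p = 1.08e-09). The highest 5m mouse was far under the lowest 3w mouse. Nrep, an axon regeneration protein (-0.99 ± 0.0816), Sox4, a transcription factor of young neurons (-0.84 ± 0.0686), and Dpysl3, a collapsin response mediator (-0.70 ± 0.068), each fell with no overlap. Dcx, the microtubule protein doublecortin of migrating and young neurons, was at 55.5, 43.5, 49.6 and 54.8 CPM in the 3w mice and 32.3, 35.9, 39.7 and 36.9 CPM in the 5m mice, lower in every 5m mouse than in any 3w mouse (-0.49 ± 0.10). Sox11 did not pass the test (-0.23 ± 0.0879, adjusted p = 0.103), and neither did Gap43 (-0.12). Of 8 neurofilament and tubulin genes of mature axons 1 was called, Tubb4a, a tubulin rich in oligodendrocytes, which fell (-0.44 ± 0.0618). With library size scaling or without mouse 191, 2 further members were called, both higher, and with all 48 libraries none was (Tubb4a at an adjusted p of 0.227).

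Of 10 genes of the perineuronal net, 6 fell and 1 rose. Ncan, which codes for the proteoglycan neurocan of the juvenile matrix, was at 615, 619.5, 600.2 and 629 CPM in the 3w mice and 357, 374, 387 and 382 CPM in the 5m mice (-0.72 ± 0.0629), and the other 5 that fell were Bcan (-0.55), Vcan (-0.43), Tnr (-0.35), Hapln1 (-0.69) and Adamts4 (-1.44), which code for brevican, versican, tenascin-R, a link protein and a protease that cuts these proteoglycans. Reads of Adamts4 are uncertain where another gene overlaps it. Hapln4, a link protein of adult nets, rose in all 4 mice, from 82.3 ± 7.81 CPM at 3w to 107 ± 3.43 CPM at 5m (0.38 ± 0.0646). Acan, the aggrecan gene, was at 8.23 ± 0.335 CPM at 3w and 7.5 ± 0.533 CPM at 5m and did not pass the test. Axon guidance genes fell in 10 of 42 and rose in 2, and 4 rose by library size or with the GC and length trend removed. Sema6a, a transmembrane semaphorin, was at 101, 82.9, 87.2 and 83.8 CPM in the 3w mice and 44.8, 40.2, 44.5 and 48.02 CPM in the 5m mice, 2-fold lower at 5m (-1.0 ± 0.0695), and Sema4d (-0.53), the commissural receptor gene Robo3 (-0.50) and the ephrin receptor gene Ephb1 (-0.49) fell by less.

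Of 27 tested cell cycle genes, 5 were lower and 1 higher. Top2a, the topoisomerase of dividing cells, was at 3.19, 2.62, 4.22 and 3.2 CPM in the 3w mice and 0.847, 0.916, 0.907 and 0.518 CPM in the 5m mice, and Mki67, the proliferation antigen, at 5.4, 2.32, 3.81 and 4.07 CPM in the 3w mice and 0.941, 1.53, 0.824 and 1.12 CPM in the 5m mice. Both were low at 5m, with means of 0.797 and 1.1 CPM, and did not overlap between the ages (-2.04 ± 0.24 and -1.85 ± 0.27). The member that rose was Anln (0.48 ± 0.0817), which codes for anillin, a cytokinesis protein that myelinating oligodendrocytes also express. Of 12 genes of radial glia and immature astrocytes 5 fell, led by Fabp7, a fatty acid binding protein of radial glia, at 15.9, 13.8, 14.3 and 13.1 CPM in the 3w mice and 4.33, 5.7, 4.04 and 6.74 CPM in the 5m mice (-1.46 ± 0.15), and by Tnc, the matrix protein tenascin-C (-1.30 ± 0.14); without mouse 191, 7 of 12 fell. Igf2bp2, a fetal RNA-binding protein, went from 2.15 ± 0.361 CPM at 3w to 0.766 ± 0.25 CPM at 5m. Of 16 tested imprinted growth genes 1 fell, Mest, by 0.45 on the log2 scale, 1 rose and 14 were not called (median -0.01).

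Among 8 genes of DNA methylation, 3 were lower. Dnmt3a, the de novo DNA methyltransferase, was at 288, 275, 292 and 290.1 CPM in the 3w mice and 209, 199, 200.4 and 194 CPM in the 5m mice. The gap between the groups was wider than the range within either (-0.51 ± 0.0571, adjusted p = 1.63e-05). Tet1, which codes for an enzyme that oxidises methylcytosine, fell by 0.62 on the log2 scale, from 38.1 ± 3.92 CPM at 3w to 24.8 ± 1.37 CPM at 5m. The third was Tet3, at -0.21 ± 0.0634, whose call was lost without mouse 187, 189, 190, 191, 193 or 194 (adjusted p = 0.0734 to 0.138), by library size (0.0783), with the GC and length trend removed (0.0862) and with all 48 libraries (0.448).

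Astrocyte genes were lower or not called: 8 of 22 fell and 0 rose (median -0.17). Slc1a2, the main glutamate transporter of the forebrain, was at 5165, 4728, 5033 and 5200.0 CPM in the 3w mice and 3537, 4178, 4171 and 4210.3 CPM in the 5m mice, lower in every 5m mouse (-0.32 ± 0.0584). Aqp4, the water channel of astrocyte endfeet (-0.37 ± 0.0777), and Ttyh1, a chloride channel protein (-0.36 ± 0.0501), fell as well, and with all 48 libraries in the fit 2 of the 22 were lower. Gfap, the intermediate filament of reactive astrocytes, was at 147 ± 7.05 CPM at 3w and 148 ± 7.13 CPM at 5m (adjusted p = 0.93). Of 21 microglial genes 3 were lower and 0 higher, all 3 by less than 0.5 on the log2 scale, and the defining gene Cx3cr1, the fractalkine receptor (-0.23), was not called. By library size 2 were lower and 1 higher, and with the GC and length trend removed 4 were lower and 2 higher. With only the 8 libraries in the fit 2 were lower, and with all 48 none was called. The microglial list was at 392.2 to 441.3 CPM in sum at 3w and 376.1 to 440.2 CPM at 5m.

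Of 15 markers of cortical excitatory neurons 4 were lower, 0 higher and 11 not called, with a median log2 fold change of -0.02. Without mouse 191, 3 were lower, and with all 48 libraries in the fit 2. By library size 4 were lower and 1 higher. In the summed level of the list abundant genes weigh most. It was 5773 to 6543 CPM at 3w and 4853 to 5668 CPM at 5m, with no overlap. The markers that fell included Slc17a7, the vesicular glutamate transporter, at 1104, 1301, 1204 and 1262 CPM in the 3w mice and 866, 944, 968 and 879 CPM in the 5m mice (-0.41 ± 0.0654), and Nrgn, which codes for neurogranin (-0.45 ± 0.0702). Of 21 interneuron genes 4 were lower and 1 higher (2 and 1 by library size), and Gad1, the enzyme that makes GABA, was at 0.09 ± 0.0531 (adjusted p = 0.297). Ndnf, a secreted protein of layer 1 interneurons, had the largest fall of the list (-0.56 ± 0.11).

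At the synapse, the vesicle and SNARE list split by member. Stx1a, which codes for syntaxin 1A (-0.50 ± 0.0797), Syngr1, synaptogyrin (-0.37 ± 0.058), and Syp, synaptophysin (-0.35 ± 0.0691), fell, together with Slc17a7 and, by the least, Vamp2 (-0.16, adjusted p = 0.0483, and 0.0752 to 0.123 without any 1 mouse other than 193); the call of Vamp2 was also lost in 7 of the other alternatives (adjusted p = 0.0523 to 0.298). Snap25 (0.31 ± 0.0713), Vamp1 (0.31 ± 0.0452) and Syt2 (0.33 ± 0.0645), which code for SNARE proteins and for a fast calcium sensor, rose; these 3 lie outside the naming rule and were chosen after their values were seen. Vamp1 was at 93.03, 98.5, 93.8 and 94.6 CPM in the 3w mice and 116, 122, 114 and 119 CPM in the 5m mice, with no overlap, whereas in Snap25 mouse 191 (1016 CPM) lay within the 3w range, which reached 1044 CPM. Of 16 postsynaptic scaffold genes 5 fell and 0 rose, among them Dlg4, the gene of PSD-95 (-0.31 ± 0.0563), Dlgap3 (-0.30 ± 0.0729) and Dlg2 (-0.30 ± 0.0648). With all 48 libraries in the fit 1 of the 16 scaffold genes was lower, and of the vesicle genes 3 were lower and 1 higher.

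Of 6 NMDA receptor subunits 3 fell and 0 rose. Grin3a, the juvenile subunit, was at 63.2, 55.8, 58.1 and 55.6 CPM in the 3w mice and 43.6, 42.3, 47.1 and 44.6 CPM in the 5m mice (-0.39 ± 0.0564), with each 5m mouse under each 3w mouse. Grin1, the obligatory subunit, was lower by 0.25 on the log2 scale. Grin2b, of the juvenile receptor, was at -0.21 ± 0.058, with the call lost without mouse 189 or 190 (adjusted p = 0.0663 and 0.0699), by library size (0.0685) and with all 48 libraries (0.207), and Grin2a, the subunit that takes over with age, at -0.11 ± 0.0655 (adjusted p = 0.304). For AMPA receptors 2 of 15 genes were called, the auxiliary subunits Cacng3 (-0.36 ± 0.0557) and Cnih2 (-0.28 ± 0.0649), both lower. Over all genes tested 11.8% were called. Of the kainate and metabotropic receptors Grm2 (-0.38 ± 0.0687) and Grik5 (-0.32 ± 0.0686) were among the 3 of 12 that fell. Slc12a2, the chloride importer of young neurons, fell by 0.35 on the log2 scale. Its list, GABA-A receptors and chloride transport, had 3 of 14 genes lower and 0 higher. None of 8 sodium channel genes was called (1, lower, with only the 8 libraries in the fit or with the GC and length trend removed). Potassium channel genes were higher in 2 of 20 and lower in 0 (none called with all 48 libraries). Kcnd3, an A-type channel, rose by 0.24. Calcium channel genes were lower in 3 of 17 and higher in 0 (1 lower with all 48 libraries). Cacna2d4 (-1.19 ± 0.17) and Cacna1a, of the P/Q-type channel (-0.32 ± 0.0534), were among those that fell. Beside these counts, 4.76% of all genes tested were higher and 7.05% lower. With all 48 libraries in the fit, 1 of the 6 NMDA receptor genes was lower and none of the AMPA, kainate and metabotropic receptor genes was called.

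The 12 largest rises, among genes with at least 50 mean counts at 5m, no overlap and a gene name, were led by Plin4 and include Il33, given above. Plin4, a perilipin that coats lipid droplets, was at 1.22, 1.72, 1.44 and 0.679 CPM in the 3w mice and 28.8, 23.8, 23.2 and 23.8 CPM in the 5m mice. It was low in every 3w mouse and far higher in every 5m mouse (4.30 ± 0.24, adjusted p = 4.42e-09; 4.22 without mouse 191). The gene lies on chromosome 17 (GRCm38, 56100591 to 56109803, minus strand) and overlaps Hdgfl2. Xdh, xanthine dehydrogenase of purine breakdown, was at 2.2, 1.62, 3.3 and 2.62 CPM in the 3w mice and 19.2, 12.01, 14.1 and 14.8 CPM in the 5m mice (2.63 ± 0.18), also on chromosome 17 (73883895 to 73950196). Abca8a, an ABC lipid transporter (2.21 ± 0.15), Alox12b, a lipoxygenase (2.14 ± 0.18), Hsf4, a heat shock factor (1.67 ± 0.20), Acer2, an alkaline ceramidase (1.45 ± 0.19), Etnppl, an astrocytic lyase of phosphoethanolamine (1.37 ± 0.17), and Map3k6, a stress kinase (1.36 ± 0.21), were also among them. The remaining 3 of the 12 largest rises move with mouse 191. Efemp1, a fibulin, was at 4.03, 1.62, 2.27 and 2.81 CPM in the 3w mice and 17.2, 4.58, 6.18 and 5.27 CPM in the 5m mice, a log2 fold change of 1.59 with that mouse and 0.96 without it. For Crip1, a LIM protein, the values were 1.58 and 0.72, and for Lyz2, lysozyme of myeloid cells, 1.54 and 0.83. All 3 were called both ways, but Crip1 lost its call without mouse 188, 189 or 190 (adjusted p = 0.0602 to 0.0686) and with only the 8 libraries in the fit (0.0535). Among the largest falls outside the oligodendrocyte lists were Rab7b, a small GTPase of late endosomes (-2.26 ± 0.30), and Tnnc1, a troponin (-1.67 ± 0.17). Mean levels at 18m were 17.7 CPM for Plin4, 12.3 CPM for Xdh and 14.2 CPM for Abca8a.

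Genes that glucocorticoids switch on were higher at 5m: 6 of 8 rose and 0 fell, with a median log2 fold change of 0.54. Glucocorticoids are the adrenal stress hormones, and their receptor binds DNA at these genes. Sgk1, a kinase, was at 52.4, 48.7, 51.1 and 50.2 CPM in the 3w mice and 95.5, 84.96, 85.6 and 88.1 CPM in the 5m mice. The groups lay apart by more than the range of either (0.81 ± 0.0662, adjusted p = 6.47e-07). Fkbp5, the co-chaperone that damps the receptor, was at 26.6, 24.9, 28.7 and 24.8 CPM in the 3w mice and 54.9, 40.4, 38.7 and 44.4 CPM in the 5m mice (0.76 ± 0.0946, and 0.65 without mouse 191). Tsc22d3, the leucine zipper GILZ, was at 49.9, 50.9, 52.4 and 48.4 CPM in the 3w mice and 74.5, 77.3, 65.6 and 71.9 CPM in the 5m mice (0.52 ± 0.0638). Hif3a (1.13 ± 0.14), Pdk4, a kinase that blocks pyruvate use (0.55 ± 0.13), and Zbtb16 (0.51 ± 0.094, outside the naming rule) rose as well, again with no overlap in any of them, and Cdkn1a (0.14) and Sult1a1 (0.35) were not called. At 18m Sgk1 stood at 56.7 CPM, Fkbp5 at 36.1 CPM and Tsc22d3 at 48.1 CPM; against 5m, whose libraries both tests share, 4 of the 8 were called lower and 0 higher. Of 16 immediate early genes, which follow neuronal activity, 1 was higher, 1 lower and 14 not called. Over all genes tested 4.76% were higher and 7.05% lower, so this list does not stand out. Fosb rose (0.97 ± 0.18) and Nptx2 fell (-0.59 ± 0.12), while Arc was at 0.50 ± 0.25 (adjusted p = 0.226) and Fos at 0.23 ± 0.22 (adjusted p = 0.57). Heat shock genes rose in 3 of 13 (5 by library size), with Hspa1a at 6.76, 9.19, 8.24 and 6.79 CPM in the 3w mice and 17.2, 18.1, 11.4 and 15.4 CPM in the 5m mice (1.0 ± 0.19); its near-identical copy Hspa1b can share its reads.

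The circadian clock, a feedback loop in which PER and CRY proteins hold back the activators CLOCK and BMAL1, had 6 of 15 genes higher and 0 lower at 5m (median 0.28). Per2 was at 44.7, 45.6, 42.3 and 45.5 CPM in the 3w mice and 61.4, 75.9, 90.3 and 65.3 CPM in the 5m mice, with no overlap (0.72 ± 0.11, adjusted p = 0.000487). Bhlhe41, a repressor of the same loop (0.54 ± 0.0966), Nr1d2 (0.39 ± 0.069) and Per1 (0.46 ± 0.13) rose as well, and Arntl, the gene of BMAL1, was at -0.08 without a call. Per1 lost its call without mouse 187, 188, 189 or 193 (adjusted p = 0.0551 to 0.104) and with all 48 libraries (0.148), where 3 of the 15 clock genes were higher. The hour at which the mice were killed is not given in the sources used here, so a difference in hour between the groups cannot be told apart from age. CLOCK and BMAL1 bind the E-box CACGTG, which reads the same on both strands. In RefSeq promoters of build GRCm38.p6, from 250 bases before to 50 bases after the start, it was present in 5 of the 14 clock genes matched and in 2187 of 27025 genes with a promoter (8.09%), or 1293 of the 11531 that were also tested (11.2%). The promoters of the 2 called genes that hold it are shown with the E-box in capitals, for Per1 at chr11:69098699-69098998 (plus strand) and for Bhlhe41 at chr6:145865371-145865670 (minus strand).
Per1: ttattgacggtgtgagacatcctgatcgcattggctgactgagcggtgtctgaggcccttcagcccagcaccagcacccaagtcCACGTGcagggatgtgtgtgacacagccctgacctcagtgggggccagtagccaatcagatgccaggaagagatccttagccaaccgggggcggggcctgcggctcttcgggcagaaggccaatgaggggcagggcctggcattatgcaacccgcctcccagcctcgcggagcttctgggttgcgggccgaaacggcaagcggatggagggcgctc
Bhlhe41: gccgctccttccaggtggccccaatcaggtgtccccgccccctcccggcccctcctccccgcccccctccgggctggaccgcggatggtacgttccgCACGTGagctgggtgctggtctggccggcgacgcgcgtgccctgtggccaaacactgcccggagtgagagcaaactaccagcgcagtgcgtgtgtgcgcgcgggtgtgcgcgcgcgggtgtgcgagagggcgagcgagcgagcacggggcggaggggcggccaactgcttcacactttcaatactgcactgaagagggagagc

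Of 25 genes of cholesterol synthesis and uptake 15 were lower and 0 higher (12 lower by library size and 9 with all 48 libraries), with log2 fold changes from -0.72 to -0.06 over the list (median -0.36). The brain makes its own cholesterol, most of it for myelin. Hmgcs1, the first committed enzyme of the pathway, was at 264, 230.2, 240.3 and 249.6 CPM in the 3w mice and 167, 179, 180.3 and 162 CPM in the 5m mice. No 5m mouse reached the 3w range (-0.52 ± 0.0623, adjusted p = 3.77e-05). Mvk (-0.42 ± 0.10) and Mvd (-0.72 ± 0.0812) of the mevalonate steps, and Lss (-0.50 ± 0.0935) and Cyp51 (-0.50 ± 0.0549) of the sterol steps, also fell with no overlap, the last with an overlapping gene, Akap9. Srebf2, the transcription factor that drives the pathway, was at -0.06 and Insig1, its inhibitor, at -0.19, neither called. The sterol element TCACNCCAC, searched on both strands, was found in 1 of the 17 members with a promoter, Hmgcs1, and in 388 of 27025 genes with a promoter (1.44%), or 151 of the 11531 also tested (1.31%). That promoter is shown with the match in capitals, 137 bases before the start (chr13:119690101-119690400, GRCm38.p6, plus strand).
Hmgcs1: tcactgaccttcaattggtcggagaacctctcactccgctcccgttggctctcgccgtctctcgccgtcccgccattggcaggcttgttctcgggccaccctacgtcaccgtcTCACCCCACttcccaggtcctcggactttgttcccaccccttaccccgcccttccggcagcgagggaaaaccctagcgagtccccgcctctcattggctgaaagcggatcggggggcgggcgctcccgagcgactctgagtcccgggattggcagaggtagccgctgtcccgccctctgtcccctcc

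Thyroid hormone genes fell in 4 of 8. Hr, the corepressor hairless, which the hormone induces, was at 88.1, 109.8, 99.6 and 97.99 CPM in the 3w mice and 54.5, 63.7, 52.7 and 57.3 CPM in the 5m mice (-0.79 ± 0.0743), and Dio2, the deiodinase that makes the active hormone in astrocytes, fell by 0.49 on the log2 scale; the other 2 calls were lost by library size scaling.

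The genes of blood vessels, of immunity and of the extracellular matrix depend on mouse 191. Of 22 collagen and basement membrane genes 3 were lower with it and 16 without it (0 higher in both), and the median log2 fold change went from -0.28 to -0.55. Col1a1, of fibrillar collagen, was at 101, 71.9, 85.8 and 82.8 CPM in the 3w mice and 113, 17.2, 22.6 and 24.01 CPM in the 5m mice. Mouse 191 lay above the 3w mice and the other 5m mice far below them (log2 fold change -0.96 ± 0.39, adjusted p = 0.133; -2.0 without mouse 191, adjusted p = 1.15e-09). Col3a1 went likewise from -0.77 (adjusted p = 0.348) to -2.08 (adjusted p = 3.7e-06), and Fbn2, the fibrillin of developing matrix, was lower in both (-0.46 and -0.51). Of 19 endothelial genes 3 were higher and 0 lower with mouse 191, and 3 higher and 5 lower without it. Flt1, a VEGF receptor (0.48 ± 0.0818, 0.39 without mouse 191), Slc2a1, the glucose carrier of the blood-brain barrier (0.46 ± 0.11, 0.31), and Ly6a (0.92 ± 0.20, 0.71) rose either way, whereas Cldn5, which codes for the tight junction protein of these cells, was at -0.32 with a call only without mouse 191 (-0.58, adjusted p = 0.000239). Tagln, of smooth muscle, was at 60.9 CPM in mouse 191 and at 3.74 to 8.65 CPM in all others; its call (adjusted p = 0.0418) was lost without mouse 187, 188, 189, 190 or 191 (adjusted p = 0.0731 to 0.183) and with only the 8 libraries in the fit (0.0764). Genes of sprouting vessels were lower in 3 of 10 with and without that mouse, higher in 0, and not called in 7 (median -0.01). By library size or with all 48 libraries 2 were lower. Mcam (-0.97 ± 0.16) and Unc5b (-0.55 ± 0.0775) were among the 3, while the members without a call reached up to 1.08.

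Complement, MHC and interferon genes were higher in 8 of 23 and lower in 0, with a median of 0.70, and without mouse 191 in 6 with a median of 0.24. With only the 8 libraries in the fit, 3 of the 20 members then tested were higher. C4b, a complement component, was at 19.00, 13.3, 14.6 and 14.6 CPM in the 3w mice and 54.9, 30.2, 33.05 and 31.6 CPM in the 5m mice (1.27 ± 0.17; 1.03 without mouse 191, adjusted p = 1.19e-06). Every 5m mouse was above every 3w mouse, and the mean at 18m was 64.4 CPM. Reads of C4b can be shared with its close copy C4a. Ifit3, an interferon-induced gene, rose by 1.32, and by 1.01 without mouse 191. H2-T23 (0.64 ± 0.16) and H2-K1 (1.10 ± 0.31), class I genes of a family with shared sequence, were also higher, and the latter lost its call without mouse 187, 189 or 190 (adjusted p = 0.0665 to 0.0816) and with only the 8 libraries (0.0578), the former with all 48 (0.0806). Red cell genes fell in 5 of 5: Hba-a1 was at 170.0, 143, 183 and 179.8 CPM in the 3w mice and 109.9, 87.00, 78.04 and 52.6 CPM in the 5m mice, and Hba-a2 (-1.09 ± 0.18), Hbb-bs (-1.07 ± 0.21) and Hbb-bt (-1.04 ± 0.21) moved alike, as near-identical copies whose reads can be split between them. The fifth, Alas2 (outside the naming rule), lost its call without mouse 187, 189, 190, 192 or 194 (adjusted p = 0.0565 to 0.0956) and with all 48 libraries (0.11). How much blood the tissue held was not tested.

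Of 79 cytosolic ribosomal protein genes 5 were higher and 3 lower, 16 higher and 3 lower by library size, 8 and 4 with only the 8 libraries, 3 and 4 without mouse 191, and 0 and 1 with all 48 libraries. Over all genes tested 4.76% were higher and 7.05% lower, so the counts of this list in the main fit do not stand out. Rps2 fell by 0.45 on the log2 scale, from 175 ± 11.8 CPM at 3w to 128 ± 8.51 CPM at 5m, and Rpl29 by 0.28, while Rps27 rose by 0.30; Rpl29 lost its call with the GC and length trend removed (adjusted p = 0.0611), and Rpl29 (0.849) and Rps27 (0.716) with all 48 libraries. Of 90 nuclear genes of the respiratory chain 10 were lower and 0 higher, among them Uqcr11 (-0.47 ± 0.0728), Cox6a1 (-0.38 ± 0.0791), Cox6b1 (-0.32 ± 0.0615) and Cox8a (-0.31 ± 0.053), all small subunits of complexes III and IV; by library size 7 were lower and 4 higher, and with all 48 libraries none was called (0.39 to 0.597 for these 4). None of the 13 protein genes of the mitochondrial genome was called (median 0.06). Of 55 clustered protocadherins, adhesion proteins that give neurons their identity, 15 were higher and 2 lower, and all but 1 of the 15 belong to the gamma cluster. The other, Pcdhb2, was at 0.54 and lost its call without mouse 187, 188, 189, 192 or 194 (adjusted p = 0.0777 to 0.139) and in 5 of the other alternatives (adjusted p = 0.0661 to 0.113); with all 48 libraries 8 of the 55 were higher and 1 lower. Pcdhgb7 was at 11.6, 12.4, 13.1 and 13.5 CPM in the 3w mice and 21.5, 19.9, 17.6 and 19.00 CPM in the 5m mice (0.63 ± 0.0859), Pcdhga8 rose by 0.60 and Pcdhgb6 by 0.56, whereas Pcdha3 of the alpha cluster fell by 0.83. The genes of the alpha cluster share constant exons, as do those of the gamma cluster, so their counts are uncertain where reads fell there. Zinc finger genes with a Zfp symbol (334 tested) were higher in 15 and lower in 12, with Zfp97 at 1.02 and Zfp46 at -0.71, in 33 and 6 by library size, in 18 and 7 without mouse 191 and in 2 and 3 with all 48 libraries. In the main fit neither count exceeded the share over all genes tested.

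Of 19 genes that the study takes up by name, 1 was higher and 3 lower at 5m. The 3 were Nfasc, Bcas1 and Dlg4, given above. Rps6 rose (0.17 ± 0.0511), with a call that was lost without mouse 187, 189, 190, 191, 192, 193 or 194 (adjusted p = 0.0566 to 0.136), with only the 8 libraries (0.0588), without a filter on low counts (0.116) and with all 48 libraries (0.6). Not called were Camk2a (-0.08), Eif2b3 (-0.04), H3f3b (-0.01), Snrnp70 (0.00), Rps13 (0.01), Rpl15 (0.01), Ldhb (0.03), Rpl7 (0.03), Birc2 (0.06), Rpl10a (0.09), Gria1 (0.10), Rsrc2 (0.10), Ankfy1 (0.11), Rpl26 (0.17) and Arc.

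The change with age was then compared with that in the ribosome pellet of the same homogenates, in which RNA that sediments with ribosomes is enriched. In one model over both kinds of library, the change differed between SC_TH and input_TH for 429 of 18416 genes (2.33%), 185 with a higher and 244 with a lower change in SC_TH, and 159 of the 429 were not protein coding. With the mouse as a block, which pairs the fractions of 1 animal, 664 genes were called. The count rests on single mice: it was 1 without mouse 187 or 194, 6 without mouse 188, 219 without mouse 191, 326 without mouse 190, 372 without mouse 193, 1094 without mouse 189 and 1350 without mouse 192, so that nearly all of the calls named here were lost without mouse 187 or 194. The 6 smallest p-values are given here. Kcnq1ot1, an imprinted antisense RNA of the nucleus whose reads cannot be told apart from those of the overlapping Kcnq1, went from 410.1 to 438 CPM in input_TH and from 273 to 166 CPM in SC_TH (difference of log2 changes -0.81, adjusted p = 0.00206). Rmrp, the RNA of an RNase complex, went from 109 to 425 CPM in SC_TH and from 1218 to 1499 CPM in input_TH (difference 1.66, adjusted p = 0.00655); it overlaps Ccdc107. The unnamed genes Gm43540 (difference -0.98), Gm37701 (-0.68), Gm37158 (-0.82) and AC132444.6 (-1.26) were at log2 fold changes in input_TH of -0.04 to 0.04 and fell in SC_TH.

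Among oligodendrocyte genes, the log2 fold change was nearer zero in SC_TH than in input_TH for Mbp (-0.62 in SC_TH, a difference of 0.58), Cldn11 (-1.15, 0.42), Olig1 (-0.39, 0.55) and Sox10 (-0.05, 0.69). For Bcas1 it was farther from zero (-1.35, a difference of -1.04). The adjusted p of these differences was 0.0116 to 0.0447. Over the list of newly formed oligodendrocytes the median change was -1.17 in SC_TH and -1.05 in input_SYN, beside -0.75 in input_TH. In the joint models the input_TH median was -0.73 beside SC_TH and -0.74 beside input_SYN. The difference between fractions passed the test for 1 of the 14 members in each of these comparisons. Small subunits of the respiratory chain went apart in sign: Cox6a1, lower in input_TH, was at 0.38 in SC_TH (difference 0.75, adjusted p = 0.0337), Uqcr11 at 0.26 (0.71, adjusted p = 0.0291) and Cox6b1 at 0.33 (0.63, adjusted p = 0.0364).

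In synaptosomes, whose input RNA was compared in the same way, the change with age differed from input_TH for 4 of 17860 genes (0.0224%), all with a lower change in input_SYN, with 1437 genes at an unadjusted p under 0.05. With the mouse as a block 8 genes were called. On the scaling of the joint model, Dnmt3a went from 233 to 163 CPM in input_TH and from 292 to 115 CPM in input_SYN (difference of log2 changes -0.84 ± 0.10, SE, adjusted p = 0.000144, and 0.00102 with the block). Prom1 fell in both, by 2.52 on the log2 scale in input_SYN (difference -1.76 ± 0.26, adjusted p = 0.00259, and 0.0154 with the block). Apc, an inhibitor of the Wnt pathway, went from 734 to 409 CPM in input_TH and from 1965 to 751 CPM in input_SYN (difference -0.55, adjusted p = 0.0286, and 0.0498 with the block). Xkr6, a scramblase relative, was at 0.08 in input_TH and -0.85 in input_SYN (adjusted p = 0.0286, and 0.0938 with the block). Next in order, Ago3 (difference -0.65) and Ctss (0.64) did not pass the test (adjusted p = 0.123 for both). The count was 2 without mouse 187, 188, 189, 192, 193 or 194.

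**Figure D5:**
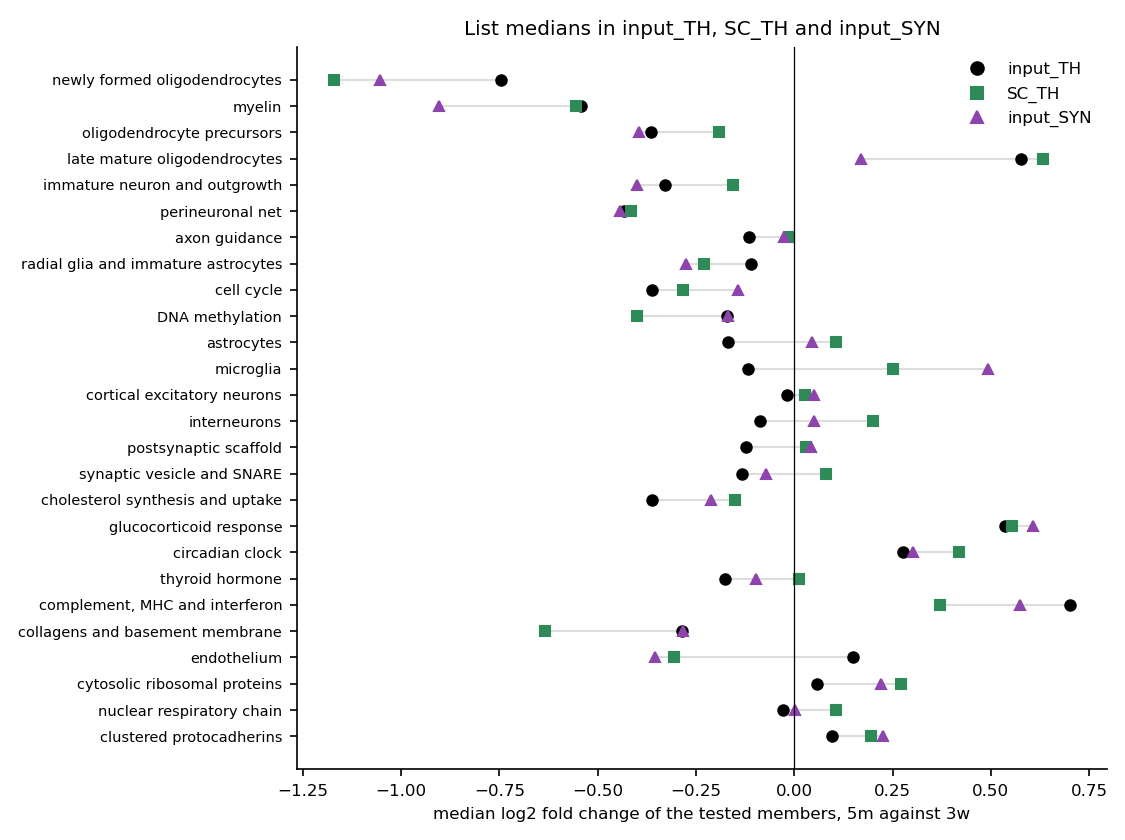
Median log2 fold change, 5m against 3w, of the tested members of 26 lists in input_TH (black circles), SC_TH (green squares) and input_SYN (purple triangles), each from its own libraries. The lists of precursors, newly formed oligodendrocytes and myelin are below zero in all fractions, from -0.75 to -1.17 for newly formed cells, and the glucocorticoid list lies above 0.5 in each.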

How the data were processed

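RNA was measured in cortical homogenate of 4 mice of 3w and 4 of 5m, 1 library per mouse. Per the labels and the study's methods, the authors made directional, rRNA-depleted libraries with UMI adaptors, ran bcl2fastq 2.20.0.422, aligned reads with TopHat2 2.1 to GRCm38 (the versions from the submitters' processing notes) and assigned them to genes with featureCounts, ignoring strand. What the authors deposited are raw counts for each gene, with no normalization. Whether UMIs were used to remove duplicates is not given in the sources used here.

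Counts were scaled by TMM and given as CPM, filtered with filterByExpr, and tested with edgeR 4.0.16 (quasi-likelihood test, Benjamini-Hochberg adjustment, threshold 0.05) in R 4.3.3. The fit held the 12 input_TH libraries of all 3 ages, so that the 18m mice contribute to the spread. Each SE is the log2 fold change over the root of its F statistic. The change in another fraction was compared by an interaction term; same-numbered libraries come from the same mouse, so a fit with the mouse as block is given beside it (deviations of the pairs correlated at -0.0364 to 0.142 for SC_TH and at 0.00145 to 0.102 for input_SYN). The steps were tested on simulated data. Alternatives were DESeq2 1.42.0, other scalings and filters, other sets of libraries, thinning, removal of a GC and length trend, and leaving out each mouse.

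The comparison and the gene lists were chosen with earlier results of these data known. Genes were named by rule: the 12 largest changes each way with at least 50 mean counts, no overlap and a gene name; up to 4 called members with the largest change and up to 3 first members of each list; the 6 smallest p-values of each interaction; and 19 genes that the study names. Others were chosen after their values were seen (Arntl, Bmp4, Car2, Cdkn1a, Draxin, Gap43, Hapln2, Igfbpl1, Insig1, Pcdhb2, Serpinb1a, Snap25, Srebf2, Sult1a1, Syt2, Tnr, Vamp1, Vamp2, Vcan, Zbtb16 and Alas2). A few genes that this rule names are not reported here. No run or batch is given in the labels.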

Additional observations from a re-analysis of the deposited data

Results flagged for a closer look

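Among 506 groups of 4 libraries (the genes named, the list sums and the library totals, at 3w and at 5m), 52 held a library far from the other 3. About 25.3 would be due at 1 in 20 if the groups were independent. They are not, since the same libraries recur and the list sums hold named genes, so no excess can be read from the 52. In 37 of the 52 it was the library of mouse 191. The values that follow are the gap of that library to its nearest neighbour as a share of the whole range of the group. Mouse 191 was the highest of the 5m mice by 0.95 for Apod, 0.928 for Bmp4, 0.886 for C4b, 0.929 for Col1a1, 0.865 for Col3a1, 0.849 for Cox6a1, 0.936 for Crip1, 0.873 for Efemp1, 0.893 for Gsn, 0.971 for H2-K1, 0.86 for Lyz2, 0.941 for Mcam, 0.885 for Mvd, 0.855 for Pdgfra, 0.897 for Plin4, 0.938 for Prom1, 0.844 for Rpl10a, 0.948 for Rps6, 0.854 for Sult1a1, 0.926 for Tagln and 0.906 for Ttr. It was the lowest by 0.836 for Bcas1 and 0.942 for Slc1a2. In summed levels of lists it was the highest by 0.906 for choroid plexus, 0.955 for meninges, 0.95 for late mature oligodendrocytes, 0.838 for radial glia and immature astrocytes, 0.901 for microglia of development or activation, 0.924 for complement, MHC and interferon, 0.933 for endothelium, 0.938 for pericytes and smooth muscle and 0.971 for collagens and basement membrane, and the lowest by 0.901 for NMDA receptor, 0.905 for AMPA receptor, 0.909 for GABA-A receptor and chloride transport, 0.88 for sodium channels and 0.928 for voltage-gated calcium channels. Mouse 187 was the highest of the 3w mice by 0.833 for Gm43540, 0.925 for Vamp2, 0.836 for the total counts and 0.943 for cholesterol synthesis and uptake. Mouse 187 was the lowest of the 3w mice by 0.835 for H2-T23 and 0.898 for Zbtb16. Mouse 188 was the highest of the 3w mice by 0.979 for Srebf2, 0.87 for neurofilament and tubulin of mature axons and 0.876 for thyroid hormone. Mouse 189 was the highest of the 3w mice by 0.89 for Birc2 and 0.96 for Hif3a. Mouse 190 was the lowest of the 3w mice by 0.863 for Snrnp70. Mouse 193 was the highest of the 5m mice by 0.925 for Lss. Mouse 193 was the lowest of the 5m mice by 0.851 for Cdkn1a and 0.875 for replication-dependent histones. The lists that are high in mouse 191 mark, among others, choroid plexus, meninges and vessels, and those that are low hold receptors and channels of neurons. Their part in the comparisons was not tested beyond leaving this mouse out.

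The change with age differed between fractions by a tested interaction for 21 pairs of a named gene and a fraction. Between SC_TH and input_TH the difference of log2 fold changes was -1.26 for AC132444.6, -1.04 for Bcas1, 0.42 for Cldn11, 0.75 for Cox6a1, 0.63 for Cox6b1, -0.37 for Dnmt3a, -0.82 for Gm37158, -0.68 for Gm37701, -0.98 for Gm43540, 0.44 for Grin3a, -0.81 for Kcnq1ot1, 0.58 for Mbp, 0.55 for Olig1, 1.66 for Rmrp, 0.69 for Sox10, 0.63 for Tubb4a and 0.71 for Uqcr11. Between input_SYN and input_TH it was -0.55 for Apc, -0.84 for Dnmt3a, -1.76 for Prom1 and -0.93 for Xkr6. Since 103 of the 429 genes called in the first comparison were also called in input_TH, most of them did not pass the test there.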

How the results depend on the processing

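Of 188 genes named, 145 were called, 104 of these in every alternative run (18, or 17 for 8 of the called genes), and none of the called genes changed direction; 41 lost the call at least once. With all 48 libraries in one fit 36 lost it, namely Alas2, Aqp4, Bcas1, Cacna1a, Cacng3, Cnih2, Cox6a1, Cox6b1, Cox8a, Dlg2, Dlg4, Dlgap3, Fbn2, Grik5, Grin1, Grin2b, Grm2, H2-T23, Hapln4, Kcnd3, Mest, Pcdhb2, Pdk4, Per1, Rmrp, Rpl29, Rps27, Rps6, Slc12a2, Snap25, Syp, Tet3, Tubb4a, Uqcr11, Vamp1 and Vamp2. The count of called genes was 2136, 1972 with DESeq2, 2126 with its size factors, 2233 without a filter, 2108 with at least 10 counts in every library, 2174 with only the 8 libraries and 761 with all 48, and 1501 to 2228 without 1 mouse. The count at 2-fold or more was 303 without a filter and 93 with at least 10 counts in every library, against 185, and 176 to 228 without 1 mouse. The count of genes whose change differed between SC_TH and input_TH was 429, and 664 with the mouse as replicate block, 792 with at least 10 counts in every library and 224 with only the 16 libraries of 3w and 5m, and 1 to 1350 without 1 mouse. For input_SYN it was 4, and 8 with the block, 7 by library size, 8 with only the 16 libraries, and 2 to 4 without 1 mouse. The cause of these moves was not tested. Of the named calls between fractions, that of Xkr6 was lost under the block. Genes that were not called changed sign, in log2 fold change: Rpl15 (-0.040), Rpl7 (-0.012) and Rps13 (-0.035) under the setting GC and length trend removed; Eif2b3 (0.010), Gm37701 (0.015), Gm43540 (0.036) and H3f3b (0.041) under the setting library size in place of TMM; Snrnp70 (-0.0029) under the setting no filter on low counts; AC132444.6 (-0.014) under the setting thinned to the smallest library. Leaving out 1 mouse at a time, the log2 fold change ran from -0.042 to 0.10 for AC132444.6, -0.084 to 0.0079 for Eif2b3, -0.020 to 0.032 for Gfap, -0.066 to 0.027 for Gm37701, -0.044 to 0.051 for Gm43540, -0.037 to 0.028 for H3f3b, -0.0078 to 0.053 for Ldhb, -0.014 to 0.030 for Rpl15, -0.0060 to 0.056 for Rpl7, -0.028 to 0.041 for Rps13, -0.032 to 0.027 for Snrnp70 and -2.28 to 0.60 for Ttr. Of 372 counts of list members called, 64 moved by over 1.5 times, 11 of them by library size, 6 with the GC and length trend removed, 6 without mouse 191, 5 with only the 8 libraries and 36 with all 48, the last 3 chosen after seeing the data.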

Other observations

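Of 25 genes of synaptic organizers 8 were lower at 5m and 1 higher (median -0.13). Cbln1, a secreted linker of synapses, was at 8.44, 10.3, 8.55 and 7.86 CPM in the 3w mice and 6.87, 5.7, 5.27 and 4.75 CPM in the 5m mice (-0.64 ± 0.14), and Gpc6, a glypican that astrocytes release, fell by less (-0.38 ± 0.0817). Several lists held few calls. There, 1 of 77 mitochondrial ribosomal protein genes was higher, 2 of 65 translation factors were higher and 1 lower, and 2 of 39 proteasome genes were higher and 1 lower; by library size 3 of the first and 5 of the second were higher. Of 58 replication-dependent histone genes 1 was higher, and of 11 genes of the Notch pathway 2 were lower (1 by library size). None of 6 neurotrophin and receptor genes was called.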
